A study of Mus musculus with 8 samples.

Results

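DNA replication in a dividing cell rests on a set of genes that are transcribed together as the cell leaves G1 and enters S phase. The 46 genes described here were given as a list of mouse gene symbols covering replication licensing, helicase activation, DNA polymerases, the replication fork, nucleotide supply, chromatin duplication and the G1/S switch. All 46 were found among the 48321 gene symbols counted, and all 46 were among the 12595 genes that passed the filter on low counts. *E2f1* reached the level used by that filter in 1 group only, spleen *Wt*, where it was highest, and is therefore described by its reads, with the counts of called genes also given without it. The other 45 reached it in at least 3 of the 4 groups.

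The genes were followed in RNA-seq of natural killer (NK) cells, innate lymphocytes that kill infected and transformed cells, sorted as CD45+ TCRb- NK1.1+ cells from C57/Bl6 mice. The 4 groups were lung *Wt*, lung KO, spleen *Wt* and spleen KO, with 2 libraries each. KO stands for a homozygous CRISPR deletion of the proximal enhancer (PE) of the chemokine gene *Ccl5*, carried by every cell of the mouse, with the *Ccl5* gene itself left in place. Per the study's methods the mice were of mixed sexes and at most a few months old, and the lines were housed and bred apart, so genotype and breeding cannot be told apart. Whether both libraries of a group stem from different animals is not given in the sources used here, so the p-values measure the spread between these libraries, which may be technical. *Ccl5*, the gene next to the deleted element, stood at 19518 and 18350 CPM (counts scaled to an equal library size) in the *Wt* and 2993 and 3195 in the KO libraries of lung, and 16679 and 15664 in the *Wt* and 2676 and 2432 in the KO libraries of spleen, so all 8 libraries followed their labels. In a bulk sample, fewer cells of a type and less RNA per cell cannot be told apart.

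Between 3132963 and 26482366 reads were assigned to genes per library, and 3 reads, the smallest amount treated as measurable, corresponded to 0.115 to 0.979 CPM. The deepest and the shallowest library were the 2 spleen KO libraries. The 46 genes together took 2702 and 2705 CPM in the *Wt* and 2894 and 2942 in the KO libraries of lung, and 3119 and 3168 in the *Wt* and 3247 and 3227 in the KO libraries of spleen. The label NK cell was met: the 10 NK genes checked summed to between 28800 and 41300 CPM in every library, whereas 7 T cell genes summed to at most 178, 6 B cell and plasma cell genes to at most 127 and 8 myeloid genes to between 321 and 480. Of the myeloid sum, 293 to 438 CPM was *Itgam*, which mature NK cells also carry, and *S100a8*, *S100a9* and *Adgre1* were at 0 in all 8 libraries.

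As background, replication starts at origins that are licensed in G1, when the origin recognition complex, Cdc6 and Cdt1 load the ring-shaped MCM helicase onto DNA. Cdc45 and the GINS complex switch that helicase on at S-phase entry, primase and polymerase alpha start each new strand, and polymerases delta and epsilon extend it on the sliding clamp PCNA. Most of these genes are targets of the E2F transcription factors, which are held in check by the retinoblastoma family until cyclins E and D act. Most resting NK cells do not divide, and they enter S phase after cytokines such as interleukin-15.

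The E2F element is the sequence that these genes are known to share, so the promoters were read for it before the expression values are given. RefSeq promoter windows of the build GRCm38.p6, running from 250 bases before to 50 bases after the transcription start, were at hand for 36 of the 46 genes. The E2F element was spelt as TTTGGCGC, TTTCCCGC, TTTGCCGC or TTTCGCGC on either strand, and matches of different spellings may overlap. It was found in 15 of the 36 windows (41.7%), against 2.6% of 27025 windows over all genes. The CCAAT box, another common promoter element, read on both strands and able to share end bases with the E2F letters, was found in 22 of the 36 (61.1%) and in 41.1% of all windows. The 6 stretches of 60 bases below come from genes whose KO effects differed. They are 3 helicase genes that were higher in lung KO and lower in spleen KO (*Mcm5*, *Mcm6*, *Mcm7*) and 3 genes that were called higher in spleen KO and not called in lung (*Cdc6*, *Gins3*, *Pola1*). Only windows with a match before the transcription start could be shown, so the stretches are examples and do not show how common the element is in either class. Each is written 5′ to 3′ on the strand of its gene, with the E2F match in capitals.
Mcm5: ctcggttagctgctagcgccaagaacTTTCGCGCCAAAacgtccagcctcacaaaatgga
Mcm6: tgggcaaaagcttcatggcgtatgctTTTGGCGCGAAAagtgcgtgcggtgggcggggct
Mcm7: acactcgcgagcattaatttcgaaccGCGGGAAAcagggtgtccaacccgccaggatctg
Cdc6: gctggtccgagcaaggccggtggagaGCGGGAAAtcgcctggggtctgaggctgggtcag
Gins3: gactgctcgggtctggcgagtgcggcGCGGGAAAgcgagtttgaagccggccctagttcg
Pola1: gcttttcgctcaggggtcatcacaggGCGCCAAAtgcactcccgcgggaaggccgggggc

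These stretches lie at chr8:75109330-75109389 on the plus strand (*Mcm5*), chr1:128359782-128359841 on the minus strand (*Mcm6*), chr5:138172015-138172074 on the minus strand (*Mcm7*), chr11:98907987-98908046 on the plus strand (*Cdc6*), chr8:95633492-95633551 on the plus strand (*Gins3*) and chrX:93632260-93632319 on the minus strand (*Pola1*). In *Mcm5* and *Mcm6* the capitals hold 2 overlapping matches, TTTCGCGC and TTTGGCGC, on opposite strands. The element stood in 6 of the 9 windows of genes called higher in lung KO and lower in spleen KO, in 1 of the 7 windows of genes called higher in lung KO and not called in spleen, and in 3 of the 4 windows of genes not called in lung and higher in spleen KO. Among genes lower in lung KO it stood in 1 of 4 windows where spleen KO was higher and 1 of 3 where spleen was not called. It stood in 2 of 5 windows of genes lower in spleen KO and not called in lung. Genes higher in KO in both organs had it in 0 of 2 windows, and genes called in neither in 1 of 2. No test compared these classes. A match describes letters in a window and is not a measured binding site.

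The first comparison asked which replication genes differed between KO and *Wt* NK cells of the lung. In lung KO, 20 of the 46 genes were higher and 8 were lower at a false discovery rate (FDR) of 0.05 (edgeR's quasi-likelihood test, Benjamini-Hochberg adjustment over all 12595 genes), and 18 were not called. Without *E2f1* there were 19 higher genes. Over all genes tested, 29.2% were called higher and 26.4% lower, so the share of replication genes called higher (43.5%) stood above the background and the share called lower (17.4%) below it. The median log2 fold change of the 46 genes was 0.16, beside 0.02 over all genes. Nucleotide supply and licensing held 10 of the 20 higher genes, led by *Rrm2*, *Cdt1* and *Mcm2*, and the clamp, clamp loader and fork genes held 5 of the 8 lower ones.

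The same comparison in the spleen gave 13 genes higher and 15 lower in KO (14 without *E2f1*), with 18 not called. Here the background was 28.2% higher and 28.9% lower, close to the shares of the replication genes (28.3% and 32.6%), and the median log2 fold change was -0.015. Of the 11 licensing genes 7 were lower and 3 higher in spleen KO, and of the 9 clamp, clamp loader and fork genes 4 were higher and 2 lower. No test compared the roles. Of the 28 genes called in each organ, 17 in lung and 15 in spleen kept the call whichever of the 8 libraries was left out. With 2 libraries against 2, an exact permutation test of a single gene cannot go below p = 0.333, so every call rests on the spread shared across genes, a common biological coefficient of variation of 2.5%.

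**Figure D1:**
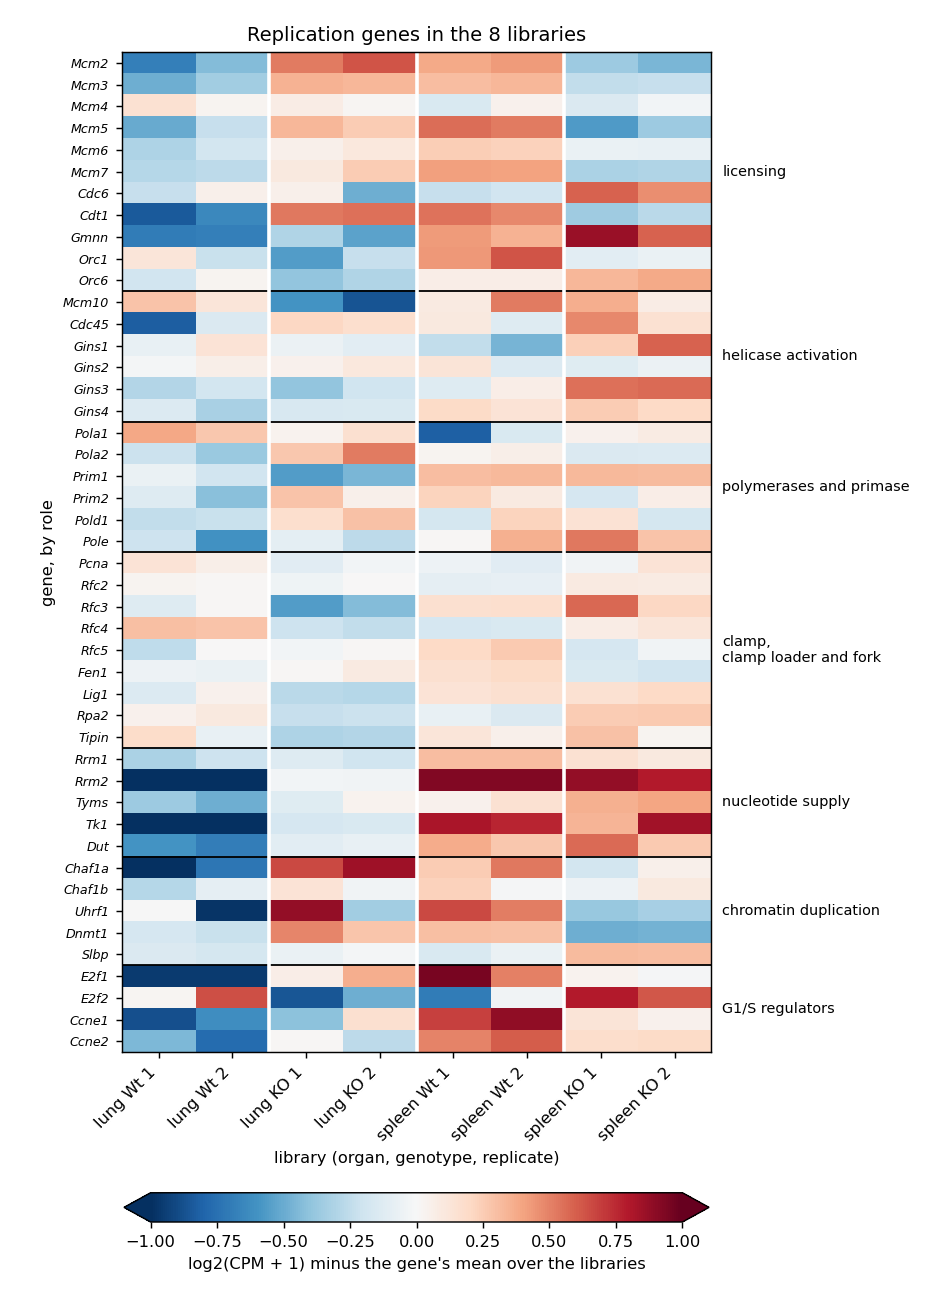
Heat map of the 46 genes (rows, by role) in the 8 libraries (columns), coloured by log2(CPM + 1) minus the gene's mean over the libraries, with the colour scale ending at 1 in either direction. The 2 lung *Wt* columns are blue for *Rrm2*, *Tk1*, *Cdt1* and *Mcm2*, and the 2 libraries of a group look alike for most genes.

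**Figure D2:**
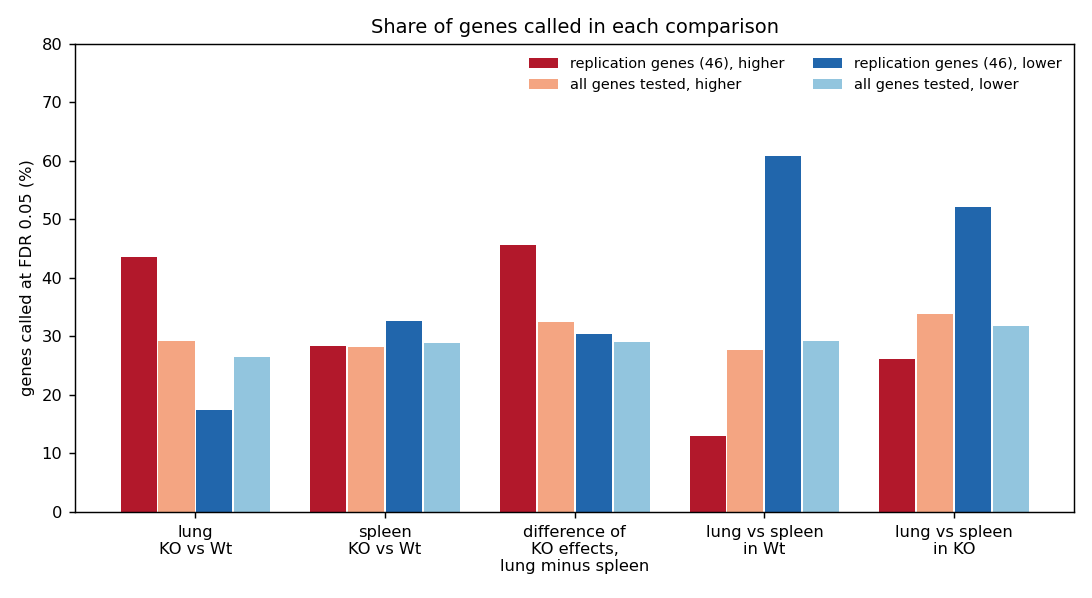
Share of genes (%, vertical axis) called higher or lower at FDR 0.05 in each of the 5 comparisons, for the 46 replication genes (dark bars) and for all 12595 genes tested (light bars). The widest gap is lung against spleen in *Wt*, where 60.9% of the replication genes and 29.3% of all genes were lower in lung.

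Of the 11 licensing genes, 6 were higher in lung KO and the other 5 were not called. *Mcm2* (chr6:88883474-88898780) encodes a subunit of the MCM helicase ring and stood at 17.0 and 20.5 CPM in the *Wt* and 40.5 and 43.8 in the KO libraries of lung, and 36.7 and 38.0 in the *Wt* and 21.5 and 20.1 in the KO libraries of spleen. The KO libraries were the higher pair in lung and the lower pair in spleen, without overlap in either organ. The log2 fold change of KO over *Wt* was 1.22 ± 0.12 (SE) in lung (2.33-fold, adjusted p = 2.2e-11) and -0.88 ± 0.10 in spleen (1.85-fold lower, adjusted p = 1.2e-09).

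*Mcm5*, another subunit of the ring (chr8:75109569-75128439), was measured at 34.6 and 42.0 CPM in the *Wt* and 62.4 and 58.9 in the KO libraries of lung, and 73.2 and 71.3 in the *Wt* and 33.0 and 38.0 in the KO libraries of spleen. As for *Mcm2*, lung KO lay above lung *Wt* and spleen KO below spleen *Wt*. The log2 differences were 0.70 ± 0.09 in lung (adjusted p = 6.3e-08) and -0.95 ± 0.08 in spleen (adjusted p = 1.0e-12), the smallest adjusted p among the 15 replication genes lower in spleen KO. *Cdt1*, the loader that brings the ring to origins (chr8:122568015-122573554), read 11.8 and 13.7 CPM in the *Wt* and 32.1 and 32.7 in the KO libraries of lung, and 32.5 and 31.1 in the *Wt* and 17.0 and 18.0 in the KO libraries of spleen. Lung KO thus reached the level of spleen *Wt*, while spleen KO lay nearer to lung *Wt*. Its changes were 1.38 ± 0.13 in lung (adjusted p = 2.1e-11) and -0.82 ± 0.10 in spleen (adjusted p = 1.4e-08).

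The ring subunits *Mcm3*, *Mcm6* and *Mcm7* had the same directions, higher in lung KO and lower in spleen KO. *Mcm3* went from 32.4 and 35.7 CPM in lung *Wt* to 58.5 and 58.0 in lung KO, and from 57.0 and 58.0 in spleen *Wt* to 38.5 and 38.8 in spleen KO (log2 0.79 ± 0.09 and -0.57 ± 0.08, adjusted p = 2.1e-09 and 6.6e-08). *Mcm6*, with the highest count per kilobase of the licensing genes, read 206 and 225 CPM in the *Wt* and 265 and 276 in the KO libraries of lung, and 304.5 and 300.2 in the *Wt* and 245 and 243 in the KO libraries of spleen (0.34 ± 0.05 and -0.31 ± 0.05, adjusted p = 2.5e-07 and 4.2e-07). None of the pairs overlapped within an organ. *Mcm7* stood at 32.3 and 32.9 CPM in the *Wt* and 42.6 and 47.3 in the KO libraries of lung, and 53.0 and 52.8 in the *Wt* and 31.7 and 31.9 in the KO libraries of spleen (0.48 ± 0.10 and -0.73 ± 0.08, adjusted p = 6.6e-05 and 1.6e-09). *Mcm7* exons overlap opposite-strand genes for 321 bases (*Ap4m1*) and 64 bases (*Cops6*) of 4426, and the strand setting of the counting is not given in the sources used here, so a small part of its reads may belong to them. 

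*Mcm4* was the exception within the ring. Its levels were 176 and 161 CPM in the *Wt* and 167 and 160 in the KO libraries of lung, and 143 and 163 in the *Wt* and 143 and 156 in the KO libraries of spleen. The genotypes overlapped in both organs. The log2 changes were -0.06 ± 0.06 in lung (adjusted p = 0.38) and -0.03 ± 0.06 in spleen (adjusted p = 0.71), so changes of the size seen in *Mcm2* or *Mcm5* would have been several standard errors away.

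The remaining licensing genes bind origins or control the loading of the ring, and in spleen KO 3 of them were called higher and 1 lower. *Cdc6*, the ATPase that works with Cdt1, read 6.22 and 7.77 CPM in the *Wt* and 7.78 and 5.03 in the KO libraries of lung, and 6.24 and 6.43 in the *Wt* and 11.8 and 10.7 in the KO libraries of spleen. Only spleen KO stood apart, with a log2 change of 0.77 ± 0.19 (adjusted p = 0.00059, against 0.66 in lung). *Orc6*, a subunit of the origin recognition complex, went from 36.5 and 36.3 CPM in spleen *Wt* to 44.1 and 45.5 in spleen KO (0.31 ± 0.09, adjusted p = 0.0020), and lay at 30.3 and 35.5 in lung *Wt* and 26.2 and 28.0 in lung KO (adjusted p = 0.067). The largest subunit gene, *Orc1*, was lower in spleen KO (-0.81 ± 0.26, adjusted p = 0.0070) from at most 5.02 CPM, and *Gmnn*, which encodes the Cdt1 inhibitor geminin, was higher (0.27 ± 0.10, adjusted p = 0.023). The spleen calls of *Orc1*, *Orc6* and *Gmnn* were not stable: without spleen *Wt* replicate 2 the adjusted p was 0.22, 0.050 and 0.27, without spleen KO replicate 2 it was 0.19 and 0.13 for the first 2, and without spleen KO replicate 1 it was 0.063 for *Gmnn*.

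In the helicase activation group, 4 of the 6 genes were not called in lung. *Gins4*, the gene of this role with the highest count per kilobase, read 75.3 and 66.1 CPM in the *Wt* and 74.3 and 74.6 in the KO libraries of lung, and 95.2 and 91.3 in the *Wt* and 99.6 and 95.4 in the KO libraries of spleen. Lung and spleen libraries did not overlap, and the genotypes overlapped in lung (KO over *Wt*, adjusted p = 0.61 in lung and 0.47 in spleen). *Gins3* stood at 21.4 and 23.1 CPM in the *Wt* and 19.9 and 22.9 in the KO libraries of lung, and 24.0 and 27.7 in the *Wt* and 39.2 and 39.6 in the KO libraries of spleen. Spleen KO was above every other library, with a log2 change of 0.58 ± 0.10 (adjusted p = 2.9e-06). *Gins1*, also a subunit of the GINS complex, was higher in spleen KO by 1.20 ± 0.27 (adjusted p = 0.00023) at 4.24 and 5.71 CPM against 2.75 and 2.22, a call that was lost without spleen KO replicate 2 (adjusted p = 0.20).

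*Mcm10*, an initiation factor, was counted with 22 and 9 reads in lung *Wt* and 5 and 5 in lung KO (2.74 and 2.33 against 1.02 and 0.680 CPM), which did not overlap. The ratio of KO to *Wt* was 0.314 with a 95% counting interval from 0.137 to 0.657 (log2 -1.65 ± 0.47, adjusted p = 0.0033), and the call was lost without lung *Wt* replicate 1 (adjusted p = 0.078) or lung KO replicate 2 (0.087). Intervals on reads cover counting error only. *Cdc45*, the partner of GINS, was higher in lung KO by 0.82 ± 0.21 (adjusted p = 0.0010), at 12.5 and 12.1 CPM against 5.59 and 9.58, but not without lung *Wt* replicate 1 (0.29). *Gins2* was not called in either organ, at 31.4 to 37.97 CPM, and overlaps the opposite-strand gene *Gse1* for 2758 of its 4097 exon bases.

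Among polymerases and primase, 3 of the 6 genes were higher and 1 was lower in lung KO, and in spleen the single call was *Pola1*. *Pola2*, the accessory subunit of polymerase alpha, stood at 21.4 and 19.2 CPM in the *Wt* and 30.3 and 36.3 in the KO libraries of lung, and 25.5 and 26.1 in the *Wt* and 22.5 and 22.7 in the KO libraries of spleen. Lung KO was the highest group, with a log2 change of 0.71 ± 0.12 (adjusted p = 3.3e-06), whereas the spleen change was -0.19 ± 0.11 (adjusted p = 0.13). *Pola1*, the catalytic subunit of the same enzyme, read 41.6 and 38.3 CPM in the *Wt* and 32.3 and 35.4 in the KO libraries of lung, and 17.5 and 28.3 in the *Wt* and 32.6 and 33.6 in the KO libraries of spleen. The 2 spleen *Wt* libraries were the lowest and lay far apart, and the spleen change of 0.44 ± 0.11 (adjusted p = 0.0012) fell to 0.24 (adjusted p = 0.069) without spleen *Wt* replicate 1, with 0.083 without spleen KO replicate 2.

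*Prim1*, the catalytic primase subunit with the highest count per kilobase of this role, was measured at 40.5 and 37.0 CPM in the *Wt* and 28.5 and 30.6 in the KO libraries of lung, and 52.7 and 53.3 in the *Wt* and 53.2 and 53.0 in the KO libraries of spleen. The 4 spleen libraries lay between 52.7 and 53.3 CPM, while lung KO was lower than lung *Wt* by -0.40 ± 0.10 (adjusted p = 0.00087, 0.068 without lung *Wt* replicate 1). Its partner *Prim2* went up in lung KO by 0.38 ± 0.12 (adjusted p = 0.0080) and *Pold1*, the catalytic subunit of polymerase delta, by 0.52 ± 0.17 (0.011). Both calls were lost without 1 library, *Prim2* without lung *Wt* replicate 2 (0.073) or lung KO replicate 1 (0.081), and *Pold1* without lung *Wt* replicate 1 (0.10) or lung KO replicate 2 (0.11). *Pole*, the catalytic subunit of polymerase epsilon, had at most 6.86 CPM and was not called in either organ.

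Of the 9 clamp, clamp loader and fork genes, 5 were lower in lung KO and 4 not called, and in spleen KO 4 were higher and 2 lower. *Rpa2*, a subunit of the protein that coats single-stranded DNA (chr4:132768332-132778752), read 167 and 174 CPM in the *Wt* and 138 and 139 in the KO libraries of lung, and 154 and 146 in the *Wt* and 194 and 195 in the KO libraries of spleen. The order of the genotypes was opposite in the 2 organs and no pair overlapped. The changes were -0.29 ± 0.06 in lung (adjusted p = 2.8e-05) and 0.38 ± 0.05 in spleen (adjusted p = 4.4e-08). *Rfc4*, a subunit of the clamp loader, stood at 59.2 and 58.3 CPM in the *Wt* and 41.1 and 40.0 in the KO libraries of lung, and 42.5 and 42.9 in the *Wt* and 50.3 and 51.9 in the KO libraries of spleen. Lung *Wt* was the highest group and lung KO the lowest, with changes of -0.54 ± 0.09 in lung (adjusted p = 1.5e-06) and 0.27 ± 0.08 in spleen (adjusted p = 0.0028, 0.18 without spleen KO replicate 2).

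The clamp itself changed little. *Pcna* read 101 and 95.6 CPM in the *Wt* and 84.9 and 90.2 in the KO libraries of lung, and 88.4 and 84.8 in the *Wt* and 89.4 and 101 in the KO libraries of spleen. The groups lay within a narrow band, and the calls of -0.17 ± 0.07 in lung (adjusted p = 0.033) and 0.19 ± 0.06 in spleen (0.0094) did not survive the loss of 1 library: lung gave 0.30 without lung *Wt* replicate 1 and 0.22 without lung KO replicate 1, and spleen gave 0.17 without spleen *Wt* replicate 2 and 0.73 without spleen KO replicate 2. *Tipin*, a fork protection gene, went from 70.2 and 58.5 CPM in lung *Wt* to 49.5 and 50.1 in lung KO, and read 67.2 and 63.7 in the *Wt* and 75.7 and 62.6 in the KO libraries of spleen. It was lower in lung KO by -0.41 ± 0.09 (adjusted p = 0.00025, 0.11 without lung *Wt* replicate 1) and overlapped between genotypes in spleen, where the sign depended on the scaling (adjusted p = 1.0, and -0.20 with an adjusted p of 0.030 under a GC offset). *Rfc3*, another loader subunit, was also lower in lung KO, at 19.0 and 20.95 CPM against 26.1 and 28.8 (-0.42 ± 0.13, adjusted p = 0.0065).

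*Fen1*, the flap nuclease that trims Okazaki fragments, read 113 and 112 CPM in the *Wt* and 118 and 125 in the KO libraries of lung, and 131 and 134 in the *Wt* and 105 and 103 in the KO libraries of spleen. Spleen KO was the lowest group, by -0.36 ± 0.06 against spleen *Wt* (adjusted p = 7.2e-07). Its exons overlap the antisense gene *Gm10143* for 1909 of 2422 bases, and *Gm10143* changed in spleen by -0.299, so reads of the pair cannot be told apart. *Rfc2*, the loader subunit with the highest count per kilobase of the role, read 486 and 483 CPM in the *Wt* and 464 and 478 in the KO libraries of lung, and 450 and 452 in the *Wt* and 511 and 507 in the KO libraries of spleen. Only the spleen change of 0.17 ± 0.04 was called (adjusted p = 0.00027), and *Lat2*, which shares 952 of its 6303 exon bases on the opposite strand, changed by 0.219 there. *Rfc5* was lower in spleen KO (-0.30 ± 0.08, adjusted p = 0.0013, 0.065 without spleen *Wt* replicate 2), and *Lig1*, the ligase that seals the fragments, was not called in either organ.

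Nucleotide supply held the largest change outside the genes with few reads. *Rrm2*, the small subunit of ribonucleotide reductase, the enzyme that makes deoxynucleotides (chr12:24708241-24714146), stood at 12.2 and 14.5 CPM in the *Wt* and 45.6 and 45.3 in the KO libraries of lung, and 89.4 and 89.2 in the *Wt* and 86.5 and 81.5 in the KO libraries of spleen. The 4 groups were in steps, with lung *Wt* lowest, lung KO between, and the spleen groups highest and nearest to each other. Lung KO exceeded lung *Wt* by 1.81 ± 0.12 on the log2 scale (3.5-fold, adjusted p = 1.5e-15), while the spleen change of -0.11 ± 0.06 was not called (adjusted p = 0.12).

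The other 4 nucleotide genes were lower in lung than in spleen as well. *Tk1*, a thymidine kinase of S-phase cells, had 15 and 5 reads in lung *Wt* and 21 and 32 in lung KO (1.86 and 1.30 against 4.30 and 4.35 CPM), and read 9.49 and 9.11 CPM in the *Wt* and 6.53 and 9.69 in the KO libraries of spleen. Lung KO was 2.58 times lung *Wt* by reads, with a 95% counting interval from 1.52 to 4.55 (log2 1.36 ± 0.35, adjusted p = 0.0013), and the spleen genotypes overlapped. *Dut*, which keeps uracil out of DNA, was higher in lung KO by 0.56 ± 0.13 (adjusted p = 0.00029). *Tyms*, which makes thymidylate, was higher in KO in both organs, by 0.39 ± 0.12 in lung (adjusted p = 0.0059, 0.13 without lung KO replicate 2) and 0.28 ± 0.09 in spleen (adjusted p = 0.0089, 0.055 without spleen *Wt* replicate 1 and 0.24 without spleen KO replicate 2). *Rrm1*, the large reductase subunit, was not called in lung and was lower in spleen KO by -0.20 ± 0.05 (adjusted p = 0.0025, 0.17 without spleen KO replicate 2).

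Among chromatin duplication genes, *Dnmt1*, the methyltransferase that copies DNA methylation to the new strand (chr9:20907209-20959888), repeated the pattern of the MCM genes. It read 48.1 and 46.1 CPM in the *Wt* and 76.1 and 65.6 in the KO libraries of lung, and 66.7 and 66.5 in the *Wt* and 38.2 and 38.7 in the KO libraries of spleen. Lung KO was above lung *Wt* and spleen KO below every other library. The changes were 0.56 ± 0.08 in lung (adjusted p = 5.4e-07) and -0.79 ± 0.08 in spleen (adjusted p = 7.0e-11). *Uhrf1*, the protein that brings Dnmt1 to newly made DNA, was read with 16 and 2 reads in lung *Wt* and 22 and 10 in lung KO. Those libraries overlapped as CPM (adjusted p = 0.16), and the fall in spleen KO (-1.31 ± 0.37, adjusted p = 0.0030) was not called without spleen KO replicate 2 (0.14).

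*Slbp*, which binds the stem-loop of histone mRNAs, had the highest count per kilobase of all 46 genes, at 523 and 511 CPM in the *Wt* and 553 and 570 in the KO libraries of lung, and 521 and 551 in the *Wt* and 722 and 718 in the KO libraries of spleen. Spleen KO stood above all other libraries by 0.42 ± 0.04 over spleen *Wt* (adjusted p = 1.7e-11), and the lung change of 0.12 ± 0.04 (adjusted p = 0.012) was lost without lung *Wt* replicate 2 (0.075) or lung KO replicate 2 (0.14). Of its 6076 exon bases, 474 lie opposite *Gm10459*, which changed by 0.79 in spleen. *Chaf1a*, the large subunit of the histone chaperone CAF-1, had 2 and 4 reads in lung *Wt* and 21 and 37 in lung KO. The ratio of the reads was 9.4 with a 95% counting interval from 4.07 to 26.7 (adjusted p = 4.4e-07), and the fitted log2 change of 3.19 became 2.17 without lung *Wt* replicate 1 and 4.17 without lung *Wt* replicate 2. More than its own RNA may be in these counts, because 4648 of its 8854 exon bases lie opposite *Ubxn6*, which did not change in lung (log2 0.18, adjusted p = 0.166). The small subunit *Chaf1b* was not called in either organ.

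Among the G1/S regulators, *E2f2*, *Ccne1* and *Ccne2* were called in both organs. *E2f1*, an activator of replication genes, had 0 reads in both *Wt* and 5 and 11 in the KO libraries of lung, and 11 and 15 in the *Wt* and 3 and 24 in the KO libraries of spleen. Lung *Wt* alone had none. With lung *Wt* set to 3 reads over both libraries together, lung KO was 5.19-fold higher by its reads. That value leaves out counting error, and the 95% counting interval of the ratio began at 3.75. In spleen the ratio of KO to *Wt* was 0.447, with a 95% counting interval from 0.251 to 0.798. Its calls, higher in lung KO and lower in spleen KO, enter the counts but are read as a description, since spleen *Wt* alone brought it past the filter, and the spleen call was lost without spleen *Wt* replicate 1 or spleen KO replicate 2. *E2f2*, its close relative (chr4:136172394-136196057), stood at 7.21 and 11.7 CPM in the *Wt* and 3.48 and 4.76 in the KO libraries of lung, and 3.997 and 6.89 in the *Wt* and 13.1 and 11.5 in the KO libraries of spleen. Its genotypes did not overlap in either organ, with changes of -1.04 ± 0.26 in lung (adjusted p = 0.0010) and 0.98 ± 0.20 in spleen (adjusted p = 7.9e-05).

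Both cyclin E genes, which drive the G1/S transition, were higher in lung KO and lower in spleen KO. *Ccne1* read 3.73 and 4.66 CPM in the *Wt* and 5.53 and 8.71 in the KO libraries of lung, and 13.0 and 15.1 in the *Wt* and 8.49 and 7.97 in the KO libraries of spleen. The groups were separate in each organ, with changes of 0.87 ± 0.26 in lung (adjusted p = 0.0042) and -0.84 ± 0.16 in spleen (adjusted p = 3.7e-05). *Ccne2*, which has the highest count per kilobase of the role, read 15.8 and 12.4 CPM in the *Wt* and 22.1 and 18.1 in the KO libraries of lung, and 31.2 and 33.9 in the *Wt* and 24.8 and 25.2 in the KO libraries of spleen (0.43 ± 0.15 and -0.39 ± 0.10, adjusted p = 0.013 and 0.0011). Of its 3495 exon bases, 609 lie opposite *Ints8*, which changed by -0.41 in spleen and -0.196 in lung. The lung call of *Ccne1* was lost without lung *Wt* replicate 1 (0.13) or lung KO replicate 2 (0.30), and *Ccne2* lost its call without lung *Wt* replicate 2 (0.094) or lung KO replicate 1 (0.13) in lung and without spleen *Wt* replicate 2 (0.091) or spleen KO replicate 2 (0.065) in spleen.

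**Figure D3:**
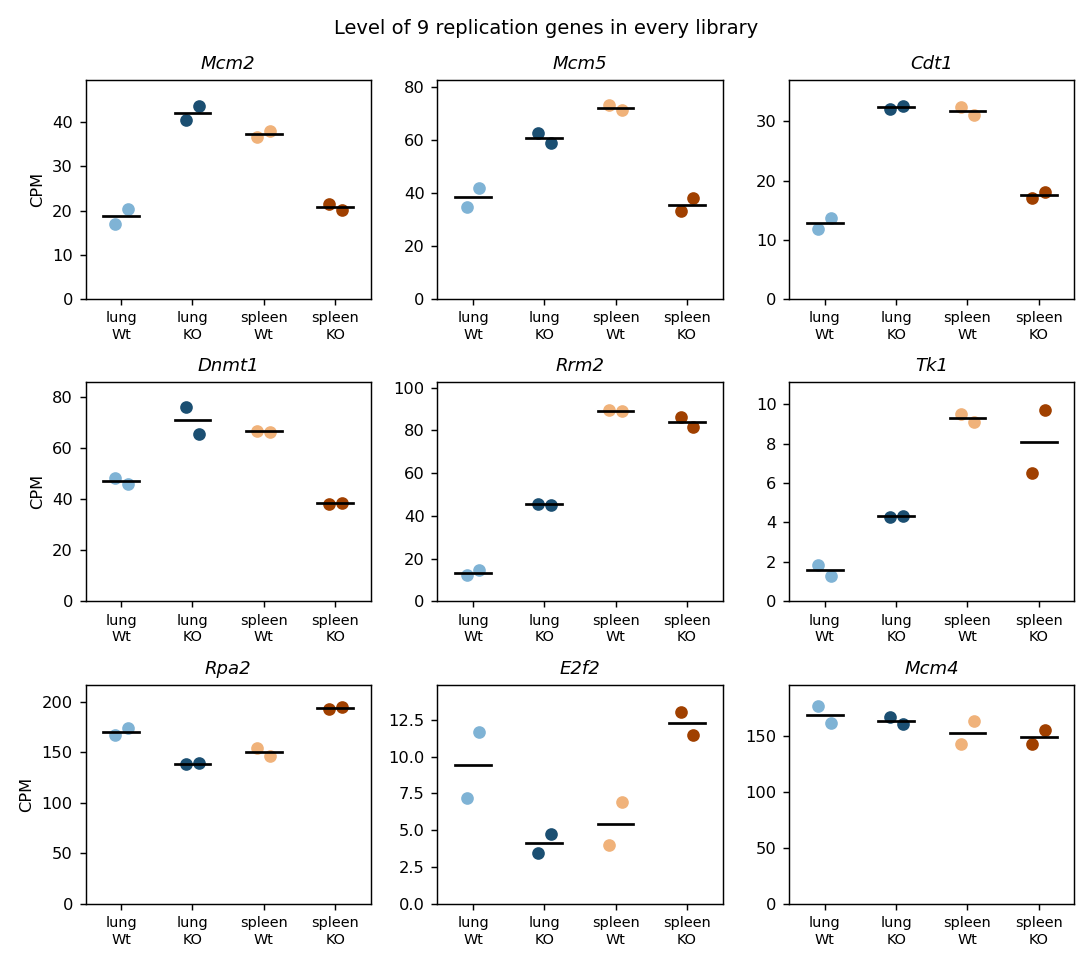
CPM (vertical axes, from 0) of 9 genes in every library, with 1 point per library and a line at the mean of the 2 libraries of a group. *Mcm2*, *Mcm5*, *Cdt1* and *Dnmt1* are higher in lung KO than in lung *Wt* and lower in spleen KO than in spleen *Wt*, *Rpa2* and *E2f2* run the other way, *Rrm2* and *Tk1* are lowest in lung *Wt*, and *Mcm4* is level.

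Set side by side, the 2 organs gave opposite calls for 14 of the 46 genes. Opposite calls were common over all genes tested too, so they are not particular to the replication genes. Higher in lung KO and lower in spleen KO were 10 genes: *Mcm2*, *Mcm3*, *Mcm5*, *Mcm6*, *Mcm7*, *Cdt1*, *Dnmt1*, *E2f1*, *Ccne1* and *Ccne2*. They were 9 without *E2f1*, and the combination took 14.2% of all genes tested. Lower in lung KO and higher in spleen KO were *Pcna*, *Rfc4*, *Rpa2* and *E2f2*, a combination that took 12.8% of all genes. *Tyms* and *Slbp* were higher in KO in both organs, beside 4.15% of all genes. Of the remaining genes, 12 were called in lung alone, 12 in spleen alone and 6 in neither (*Mcm4*, *Gins2*, *Gins4*, *Pole*, *Lig1* and *Chaf1b*). The share of all genes in these last classes is not given, so their counts are not read as particular to the replication genes.

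The difference of the 2 KO effects was tested directly as an interaction, lung minus spleen. It was positive for 21 genes (20 without *E2f1*) and negative for 14, against 32.5% and 29% of all genes, with a median of 0.28 beside 0.034. The interaction was positive for 4 of the 5 nucleotide genes and 6 of the 11 licensing genes, and negative for 6 of the 9 clamp, clamp loader and fork genes. *Cdt1* (2.20 ± 0.17) and *Mcm2* (2.11 ± 0.15) had the widest positive differences of the genes with at least 3 reads in every library, and *E2f2* (-2.02 ± 0.33) the widest negative one. *Rrm2*, whose spleen change was not called, also had a difference of 1.92 ± 0.14 (adjusted p = 4.8e-15).

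**Figure D4:**
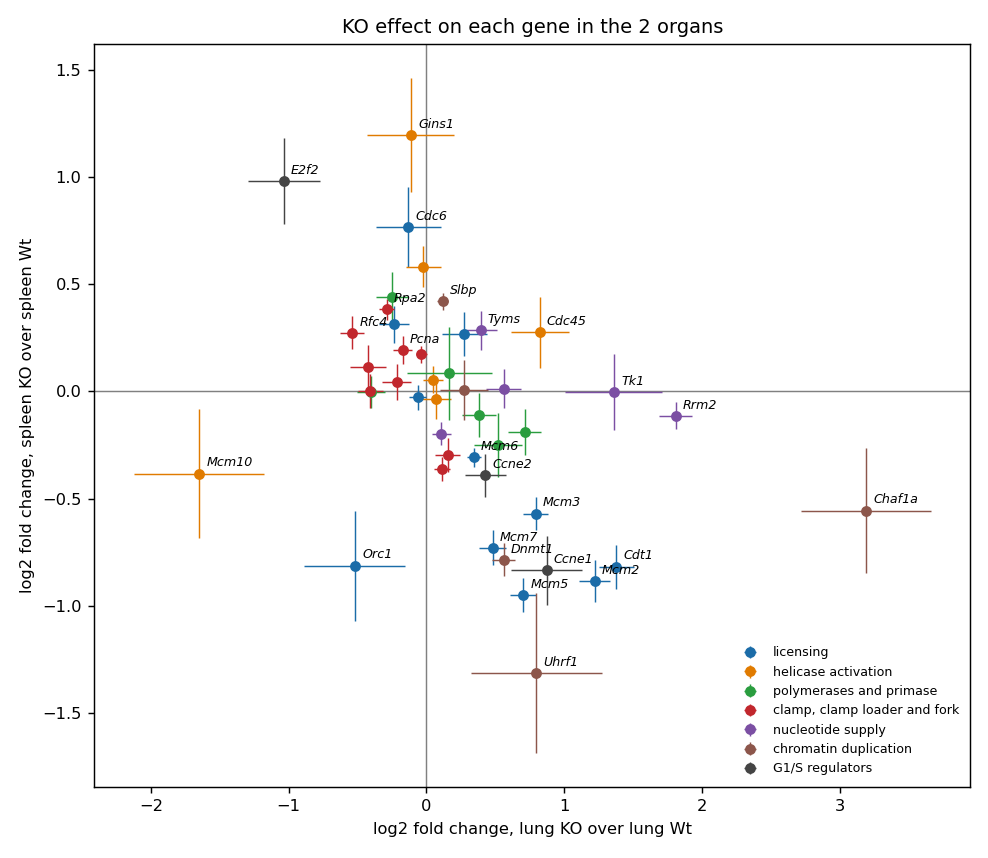
Log2 fold change of KO over *Wt* in lung (horizontal axis) and spleen (vertical axis) for 45 genes coloured by role, with bars of 1 SE. *E2f1*, which had 0 reads in lung *Wt*, is left out, and names are given for genes called in both organs or with large changes. *Mcm2*, *Mcm3*, *Mcm5*, *Mcm6*, *Mcm7*, *Cdt1*, *Dnmt1* and the cyclin E genes lie at the lower right and *E2f2*, *Rfc4*, *Rpa2* and *Pcna* at the upper left.

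The organ comparison in *Wt* asked where NK cells transcribed more of the replication genes. In *Wt* mice 28 of the 46 genes (27 without *E2f1*) were lower in lung than in spleen and 6 were higher, against 29.3% lower and 27.7% higher over all genes, with a median log2 difference of -0.39. All 5 nucleotide genes were lower in lung, as were 8 of the 11 licensing genes. *Rrm2* led with -2.78 ± 0.10 (6.88-fold lower in lung, adjusted p = 1.4e-23), followed among the smallest p-values by *Mcm5* (-0.95 ± 0.09), *Cdt1* (-1.34 ± 0.13), *Mcm6* (-0.50 ± 0.05) and *Rrm1* (-0.59 ± 0.06), with adjusted p of 3.2e-10 or less. *Rrm1* went from 138 CPM in both spleen *Wt* libraries to 89.0 and 96.1 in lung *Wt*. The higher genes were *Pola1* (0.72 ± 0.12), *Rfc4* (0.46 ± 0.08), *Rpa2* (0.19 ± 0.05), *Pcna* (0.20 ± 0.07), *Rfc2* (0.10 ± 0.04) and *E2f2* (0.55 ± 0.24). The calls of *Rpa2* (adjusted p = 0.12 without spleen *Wt* replicate 2), *Pcna* (0.16 without lung *Wt* replicate 1 or spleen *Wt* replicate 2), *Rfc2* (0.077 to 0.095 without any 1 of lung *Wt* replicate 1 and the 2 spleen *Wt* libraries) and *E2f2* (0.38 without lung *Wt* replicate 2, 0.28 without spleen *Wt* replicate 1) were lost in those refits. This comparison shares its *Wt* libraries with the KO comparisons, so it is no separate support for them.

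In KO mice the organs differed in another way. There 24 genes were lower and 12 higher in lung than in spleen, beside 31.7% lower and 33.9% higher over all genes, with a median of -0.22. *Mcm2* (1.06 ± 0.10), *Dnmt1* (0.86 ± 0.08), *Cdt1* (0.86 ± 0.10), *Mcm5* (0.70 ± 0.08) and *Mcm3* (0.59 ± 0.08) were now higher in lung, with adjusted p of 2.3e-08 or less. All 5 had been lower in lung among the *Wt* libraries. That change of sign restates the difference of the KO effects in the same libraries, so it is no separate support for it. The nucleotide genes stayed lower in lung in all 5 cases, with *Rrm2* at -0.86 ± 0.07 (adjusted p = 4.8e-13), although *Tk1* lost its call without spleen KO replicate 2 (adjusted p = 0.22). *Gmnn*, at 16.2 and 13.6 CPM in lung KO and 37.5 and 30.8 in spleen KO, was lower in lung by -1.12 ± 0.12, close to its value of -1.13 ± 0.14 in *Wt*. *Prim1* (-0.84 ± 0.09), *Rpa2* (-0.48 ± 0.05) and *Slbp* (-0.36 ± 0.04) completed the 5 lower genes with the smallest p-values.

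By mean CPM, lung *Wt* was the lowest group for 24 of the 46 genes and the highest for 4, namely *Mcm4*, *Pola1*, *Pcna* and *Rfc4*. Spleen KO was the highest for 18, spleen *Wt* for 15 and lung KO for 9. The order from high to low was lung KO, spleen *Wt*, spleen KO and lung *Wt* for 7 genes, *Mcm2*, *Mcm3*, *Cdt1*, *Pola2*, *Prim2*, *Pold1* and *Chaf1a*. Lung KO and spleen *Wt*, neighbours in that order, lay between 31.1 and 32.7 CPM in all 4 libraries for *Cdt1*, and between 57.0 and 58.5 CPM for *Mcm3*.

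Other genes of the pathway were read from a list of 72 further replication and G1/S genes, of which 69 passed the filter. In lung KO 25 were higher and 13 lower, and in spleen KO 23 were higher and 20 lower. These shares were 36.2% and 18.8% in lung and 33.3% and 29% in spleen, the last pair near the 28.2% and 28.9% of all genes. Cyclin D3 (*Ccnd3*), which acts with Cdk4 and Cdk6 ahead of E2F release, went from 166 and 171 CPM in lung *Wt* to 330 and 334 in lung KO (0.98 ± 0.05, adjusted p = 5.4e-19) and from 280 and 273 in spleen *Wt* to 182 and 171 in spleen KO (-0.66 ± 0.05, adjusted p = 1.5e-14). *E2f4* had the same opposite calls (0.66 ± 0.08 and -0.63 ± 0.07). *E2f6* (1.63 ± 0.16), *Myc* (0.74 ± 0.10) and *Ccnd2* (0.28 ± 0.03) were the other higher genes of lung KO with the smallest p-values.

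On the lower side of lung KO stood *Orc4* (-0.54 ± 0.06), *Asf1a* (-0.41 ± 0.07), *Dtymk* (-0.36 ± 0.09), *Orc5* (-0.30 ± 0.06) and *Top1* (-0.26 ± 0.05). Of these, the origin recognition subunits *Orc4* and *Orc5* and the topoisomerase *Top1*, were among the 5 higher genes of spleen KO with the smallest p-values (0.38 ± 0.06, 0.42 ± 0.05 and 0.45 ± 0.05), together with *Cdk6* (0.59 ± 0.07) and *Rbbp7* (0.28 ± 0.04). *Rbl2* (-0.39 ± 0.05), *Rpa1* (-0.34 ± 0.05) and *Ticrr* (-3.23 ± 0.42), which encodes treslin, a factor of helicase activation, were lower there. *Rpa1* and *Rpa2*, subunits of the same complex, thus had opposite signs in spleen.

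Genes of mitosis, which follow S phase, gave a clearer balance in lung. Of 20 such genes, 14 (70%) were higher in lung KO and 6 were not called, with a median of 1.06. In spleen KO 7 (35%) were higher and 7 (35%) lower. Over all genes tested, 29.2% were called higher and 26.4% lower in lung, and 28.2% and 28.9% in spleen. *Bub1*, *Ccnb1*, *Nusap1* and *Ube2c* had no reads in either lung *Wt* library. Summed over the 20 genes, the level was 119 and 126 CPM in the *Wt* and 232 and 238 in the KO libraries of lung, and 438 and 432 in the *Wt* and 430 and 453 in the KO libraries of spleen. *Mki67*, the proliferation antigen, read 10.9 and 10.9 CPM in the *Wt* and 18.8 and 20.1 in the KO libraries of lung, and 31.7 and 31.9 in the *Wt* and 34.6 and 42.2 in the KO libraries of spleen. *Top2a*, the topoisomerase of dividing cells, read 22.9 and 25.1, 40.5 and 45.7, 87.2 and 78.8, and 61.7 and 73.3 CPM in the same order of groups. For both, lung *Wt* was lowest and lung KO lay between it and the spleen, the same steps as *Rrm2*.

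GC content moved with the KO effects across all genes. Over 12497 genes, Spearman's rho between GC content and the log2 change was 0.290 in lung and -0.271 in spleen, as a description across genes, which are not independent replicates. The replication genes ran from 36.3% to 61% GC with a median of 49.6%, near the 48.8% of all genes. With a GC offset in the fit, the counts were 20 higher and 6 lower in lung and 11 higher and 18 lower in spleen. The share of all genes called under that fit is not given beside them. Of the 14 genes with opposite calls 11 stayed so, and *E2f1*, *Pcna* and *Rfc4* lost a call in spleen (adjusted p = 0.054, 0.15 and 0.12), as did *Pcna*, *Pold1*, *Rfc3* and *Tipin* in lung (0.45, 0.46, 0.066 and 0.054). *Mcm2* remained at 1.14 in lung and -0.83 in spleen, *Cdt1* at 1.11 and -0.57, and *Rrm2* at 1.91 and -0.19. Calls were gained for *Lig1* (-0.36, adjusted p = 0.0029) and *Rrm1* (0.24, 0.0017) in lung, and in spleen for *Rrm2* (0.0072), *Pola2* (-0.24, 0.047), *Prim2* (-0.26, 0.034) and *Tipin* (-0.20, 0.030).

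**Figure D5:**
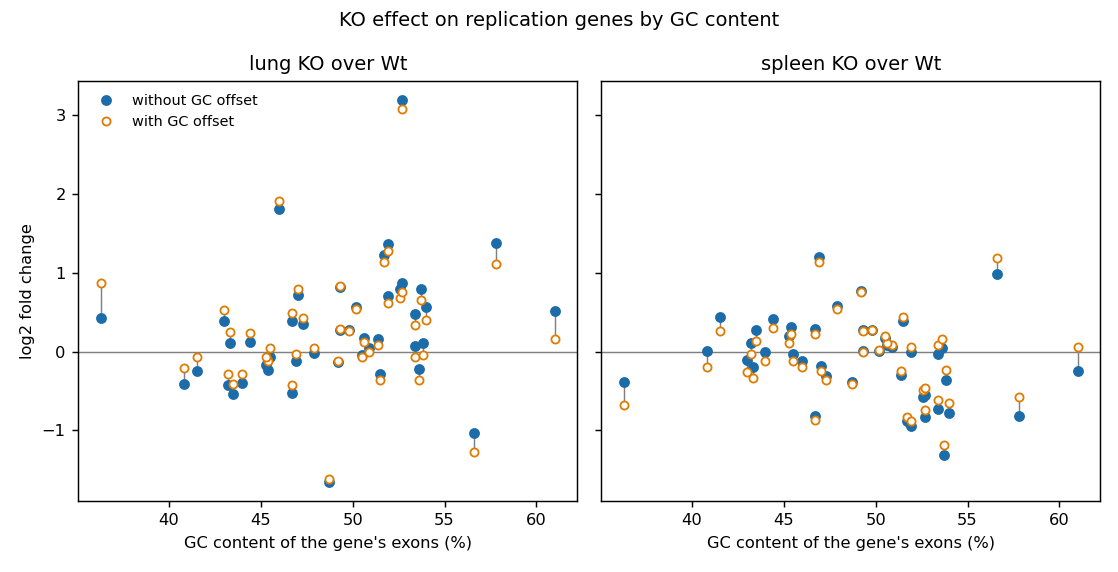
Log2 fold change of KO over *Wt* (vertical axis) by GC content of the exons (%, horizontal axis) for 45 genes, with *E2f1* left out, in lung (left) and spleen (right). Filled points are the fit without and open points the fit with a GC offset, joined by a line for each gene, and most lines are short beside the changes of *Mcm2*, *Cdt1* and *Rrm2*.

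Genes of other cell types moved with the groups too, and their part in the results was not tested. The 6 B cell and plasma cell genes summed to 7.51 to 9.32 CPM in lung *Wt*, 25.4 to 26.8 in lung KO and 122 to 127 in spleen of either genotype. This is the same order as *Rrm2* and the mitosis genes, though *Ms4a1* was at 0 in both lung *Wt* libraries. The 7 T cell genes summed to 67.4 to 68.9 CPM in lung *Wt*, 48.5 to 51.0 in lung KO, 175 to 178 in spleen *Wt* and 158 to 167 in spleen KO. The 8 lung epithelial and stromal genes summed to 321 to 331 CPM in lung *Wt*, 453 to 494 in lung KO and 65.2 to 75.4 in spleen. The 8 myeloid genes summed to 417 to 422 CPM in lung *Wt*, 460 to 480 in lung KO, 327 to 328 in spleen *Wt* and 321 to 337 in spleen KO, and the 6 erythroid and platelet genes between 43.4 and 52.1 in lung and between 1.25 and 2.87 in spleen. The 10 NK genes summed to between 40100 and 41300 CPM in lung *Wt*, 33500 in both lung KO libraries, between 28800 and 29000 in spleen *Wt* and between 36200 and 38100 in spleen KO.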

How the data were processed

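RNA-seq libraries of sorted NK cells (CD45+ TCRb- NK1.1+) were analysed, 2 for each combination of organ (lung, spleen) and genotype (*Wt*, KO). Per the labels and the study's methods the authors sequenced NEBNext RNA libraries at 50 bp, aligned reads to mm10 with HISAT2 2.1.0 and counted them per gene with HTSeq (0.11.1 per the submitters' processing notes, while the study's methods name another 0.11 release). The authors deposited raw counts per gene symbol without normalization. The strand setting and gene annotation of the counting are not given in the sources used here. Rows of HTSeq's uncounted reads were left out. Reads in no feature made up 52.7 to 55.0% of uniquely placed reads, and ambiguous ones 0.686 to 0.768%.

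Counts were fitted in R 4.3.3 with edgeR 4.0.16 (TMM scaling, filterByExpr over the 4 groups, 1 mean per group over the 8 libraries) and tested with its quasi-likelihood test at FDR 0.05, with Benjamini-Hochberg adjustment over 12595 genes. CPM use TMM-scaled totals. Standard errors were derived from the F statistic. Fits with DESeq2 1.42.0, other scalings, filters, a GC offset, a replicate block, assumed dispersions and each library left out were the alternatives, and the script was tested on simulated data. Lengths, GC content, overlaps and gene coordinates came from GENCODE M21 (GRCm38, the same assembly as mm10), which matched 46394 of 48321 symbols directly and 577 through older names. Promoter sequences came from RefSeq (GRCm38.p6) and were at hand for 36 genes.

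The members, gene lists and markers were chosen with earlier results of these data known. Every one of the 46 genes is accounted for. Given by library with a test are, per direction, the 10 called genes of smallest p in each KO comparison, the 5 such genes in each organ comparison, and the gene with the highest count per kilobase of each role. Of the 72 other replication genes the 5 of smallest p per direction are named. Depth ran from 3132963 to 26482366 counted reads. The 2 libraries of a group differed by slightly more than sampling noise (chi-square per degree of freedom 1.20 to 1.42) and were counted as 2.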

Additional observations from a re-analysis of the deposited data

Results flagged for a closer look

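The KO effects of 20 replication genes were singled out because their log2 difference between the organs, lung minus spleen, passed the interaction test of edgeR (quasi-likelihood, Benjamini-Hochberg adjustment) and had the 10 smallest p-values in its direction. *Cdt1* (2.20 ± 0.17), *Mcm2* (2.11 ± 0.15), *Rrm2* (1.92 ± 0.14), *Mcm5* (1.65 ± 0.12), *Mcm3* (1.36 ± 0.12), *Dnmt1* (1.35 ± 0.11), *Mcm7* (1.21 ± 0.13) and *Mcm6* (0.65 ± 0.07) had positive differences, with adjusted p between 4.8e-15 and 1.6e-10. *Chaf1a* (3.75 ± 0.57, adjusted p = 5.1e-07) rested on 2 and 4 reads in lung *Wt* and became 2.72 without lung *Wt* replicate 1 and 4.73 without lung *Wt* replicate 2. *Fen1* had a difference of 0.48 ± 0.08 (adjusted p = 4.5e-06), beside 0.40 for the antisense gene *Gm10143*.

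In the negative direction stood *E2f2* (-2.02 ± 0.33), *Rfc4* (-0.81 ± 0.12), *Rpa2* (-0.67 ± 0.07) and *Slbp* (-0.30 ± 0.06), with adjusted p between 6.5e-10 and 1.6e-05. They were followed by *Pola1* (-0.69 ± 0.16), *Gins3* (-0.60 ± 0.16), *Orc6* (-0.55 ± 0.14), *Tipin* (-0.41 ± 0.12), *Pcna* (-0.37 ± 0.09) and *Rfc2* (-0.21 ± 0.06), with adjusted p between 0.00039 and 0.0035. With a GC offset the differences of *Slbp* (-0.07, adjusted p = 0.27), *Pola1* (-0.33, 0.074), *Pcna* (-0.17, 0.12) and *Tipin* (-0.01, 0.96) were no longer called. *Tipin* also lost its call without lung *Wt* replicate 1 (-0.25, 0.14) and *Pcna* without spleen KO replicate 2 (-0.23, 0.12).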

How the results depend on the processing

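Counts of replication genes called were 28 for KO over *Wt* in lung, 28 in spleen, 35 for the difference of the KO effects, 34 for lung over spleen in *Wt* and 36 in KO. At FDR 0.001 they were 16, 16 and 21 for the first 3. DESeq2 called 15 in spleen, and kept both calls of 7 of the 10 genes higher in lung KO and lower in spleen KO (without *E2f1*, *Ccne1* and *Ccne2*) and of 2 of the 4 with the opposite calls (without *Pcna* and *Rfc4*). In lung, DESeq2 did not call *Mcm10*, *Prim2*, *Pold1*, *Pcna*, *Rfc3*, *Tyms*, *Slbp*, *Ccne1* and *Ccne2* (adjusted p between 0.057 and 0.18). Fixing the coefficient of variation at 0.1 gave 17, 17, 23 and 22 for the first 4, and fixing it at 0.2 gave 8, 3, 12, 11 and 11. Under 0.2 the lung calls were *Rrm2*, *Chaf1a*, *E2f1*, *Cdt1*, *Mcm2*, *E2f2*, *Tk1* and *Mcm10* and the spleen calls *Mcm5*, *E2f2* and *Uhrf1*, and none of the 10 genes higher in lung KO and lower in spleen KO kept both calls. With at least 10 counts in every library, spleen gave 25 calls with the balance turned to 13 higher and 12 lower, with 40 genes tested. Leaving out 1 library gave 23 to 29 calls in lung, 18 to 28 in spleen (18 without spleen KO replicate 2, the deepest library), 31 to 36 for the difference, 27 to 35 for the organs in *Wt* and 25 to 36 in KO. A left-out fit leaves 1 library in a group, which is assumed to vary like the others.

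The replicate numbers were not shown to pair the libraries, since deviations of *Wt* and KO libraries with the same number correlated at -0.0139 in lung and 0.169 in spleen over 5103 genes. With a replicate block the counts were 30, 28, 35, 33 and 35. Scaling by library totals shifted the median of all genes by over 0.1 for lung (0.113), the difference (0.194) and the organs in *Wt* (-0.116), and split the calls into 23 higher and 7 lower in lung and 2 higher and 34 lower for the organs in *Wt*. Of single-gene values under the alternatives, 1471 kept direction and call, 142 lost the call and 2 changed sign, *Rfc2* for lung over spleen in *Wt* with library totals (-0.0016) and the difference of *Tipin* under the GC offset with replicate block (0.0017). These values cover only the genes picked for the smallest p in each comparison, a choice that favours kept calls. They also include refits without a library that the comparison does not use. With the coefficient of variation fixed at 0.2, 52 of these values lost the call and 26 kept it. The cause of lost calls and changed signs was not tested. Depth limits, among others, *E2f1*, *Chaf1a*, *Uhrf1*, *Mcm10*, *Tk1*, *Orc1* and *Gins1*, with 0 to 38 reads in the shallower libraries.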
